A study of Mus musculus with 60 samples.

Results

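The 9 genes described here are markers of endoderm, above all of the extraembryonic endoderm that surrounds the early mouse embryo, followed in mouse embryonic stem cells (mESCs) during retinoic acid (RA) treatment. They were chosen by name (Gata4, Gata6, Foxa2, Sox17, Sox7, Dab2, Cubn, Lama1 and Col4a1) and are 9 of the 55487 genes in the RNA count tables. All 60 libraries came from E14JU mESCs in which the replisome protein POLE4, a small subunit of DNA polymerase epsilon, carries a degradation tag (POLE4-dTAG), so that the compound dTAG removes the protein. The control groups share this allele. The 20 groups of 3 libraries each fell into 4 kinds of cells. Those with wild-type MCM2 received DMSO (Ctrl) or 1 µM dTAG (dPOLE4), and those whose MCM2 helicase subunit carries substitutions in its histone-binding region received the same (Ctrl MCM2-2A and dPOLE4 MCM2-2A). Cells were treated for 24 h in serum and LIF (T0). They were then kept in RA without LIF for 12 h (T12), 24 h (T24) or 60 h (T60). A second experiment held the same 4 kinds of cells for 96 h of DMSO or dTAG without RA (96h). No group had LIF removed without RA, so RA, loss of LIF and time cannot be told apart in the changes from T0. These changes are called the RA response below. The MCM2-2A cells are labelled as 1 clone, so that the mutation and the clone cannot be told apart. The labels' treatment protocol lists partly other hours than the sample titles, and the times of the titles are used. dTAG acts on the protein, so transcript counts do not check the depletion. The study describes the libraries of a group as biological replicates, while the labels do not say whether they came from separate cultures, so p-values measure the spread between these libraries.

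The primitive endoderm separates from the pluripotent cells of the blastocyst under GATA6 and then GATA4 and SOX17, and forms parietal endoderm, which lays down a thick basement membrane of laminin and type IV collagen, and visceral endoderm, which takes up and secretes nutrients. FOXA2 and SOX7 are transcription factors of visceral and parietal endoderm, respectively, and FOXA2 also acts in definitive endoderm and in midline tissues. DAB2 is an endocytic adaptor, and cubilin, encoded by Cubn, is a scavenging receptor of absorptive epithelia. RA is known to induce extraembryonic endoderm genes in mESCs as well as neural ones.

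Library totals were 10461077 to 46609151 counts in the RA experiment and 7126100 to 23598266 in the 96h experiment. The labelled cell type was checked by 5 pluripotency genes (Pou5f1, Nanog, Zfp42, Esrrb and Klf4), whose summed level was 2313 to 2399 CPM (read counts scaled to a common library size) in the Ctrl T0 libraries and 105.1 to 136.0 CPM at T60. At T60 the same sum was 284.9 to 377.4 CPM in Ctrl MCM2-2A and 395.3 to 513.0 CPM in dPOLE4 MCM2-2A cells. In these bulk libraries, fewer cells of a type and less RNA per cell cannot be told apart. In the wild-type background replicate 1 had the highest of the 3 values in 18 of 18 pairs of member gene and group at T0, 15 of 18 at T12, 12 of 18 at T24 and 16 of 18 at T60, and replicate 2 never did.

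The 9 genes lie on 7 chromosomes (mm10), and 3 of them lie where the MCM2-2A line showed raised expression over a whole stretch. Gata4 (ENSMUSG00000021944) lies at chr14:63198922-63271692 on the minus strand and Sox7 (ENSMUSG00000063060) at chr14:63943673-63950732 on the plus strand, both within a chromosome 14 segment with gene starts from 47240944 to 67752135. Dab2 (ENSMUSG00000022150) lies at chr15:6299788-6440712 on the plus strand, on a chromosome whose genes were higher as a whole in that line. The others are Gata6 (chr18:11052064-11085635, plus), Foxa2 (chr2:148042877-148046969, minus), Sox17 (chr1:4490931-4497354, minus), Cubn (chr2:13276338-13491813, minus), Lama1 (chr17:67697259-67822647, plus) and Col4a1 (chr8:11198423-11312826, minus). The annotation places genes on the opposite strand over parts of Gata6, Sox17, Dab2, Col4a1 and Cubn. The libraries were strand-specific, but the strand setting of the counting is not given in the sources used here, so reads of such pairs may be mixed. Col4a1 and Col4a2 start head to head and overlap from 11312805 to 11312826.

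RA treatment was followed first in Ctrl cells, where the genes rose in a staggered order: Gata6 was higher by T12, most others by T24, and all 9 by T60. A gene was called when its adjusted p in edgeR's quasi-likelihood test was below 0.01 and its log2 fold change exceeded 0.58 in size. At T12 against T0, 2 of the 8 members tested were called, Gata6 upward and Lama1 downward, beside 11.3% of all features tested (7.24% higher and 4.04% lower). At T24, 8 of 9 were called, beside 21.8%, with 7 higher (13.5% of all features) and Lama1 lower (8.27%). At T60 all 9 were called higher, beside 50.6% of all features called in either direction and 26.9% called higher, and the median log2 fold change was 4.2 over the 9 genes and -0.01 over all features. Leaving out any 1 library left these 3 counts as they were.

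**Figure D1:**
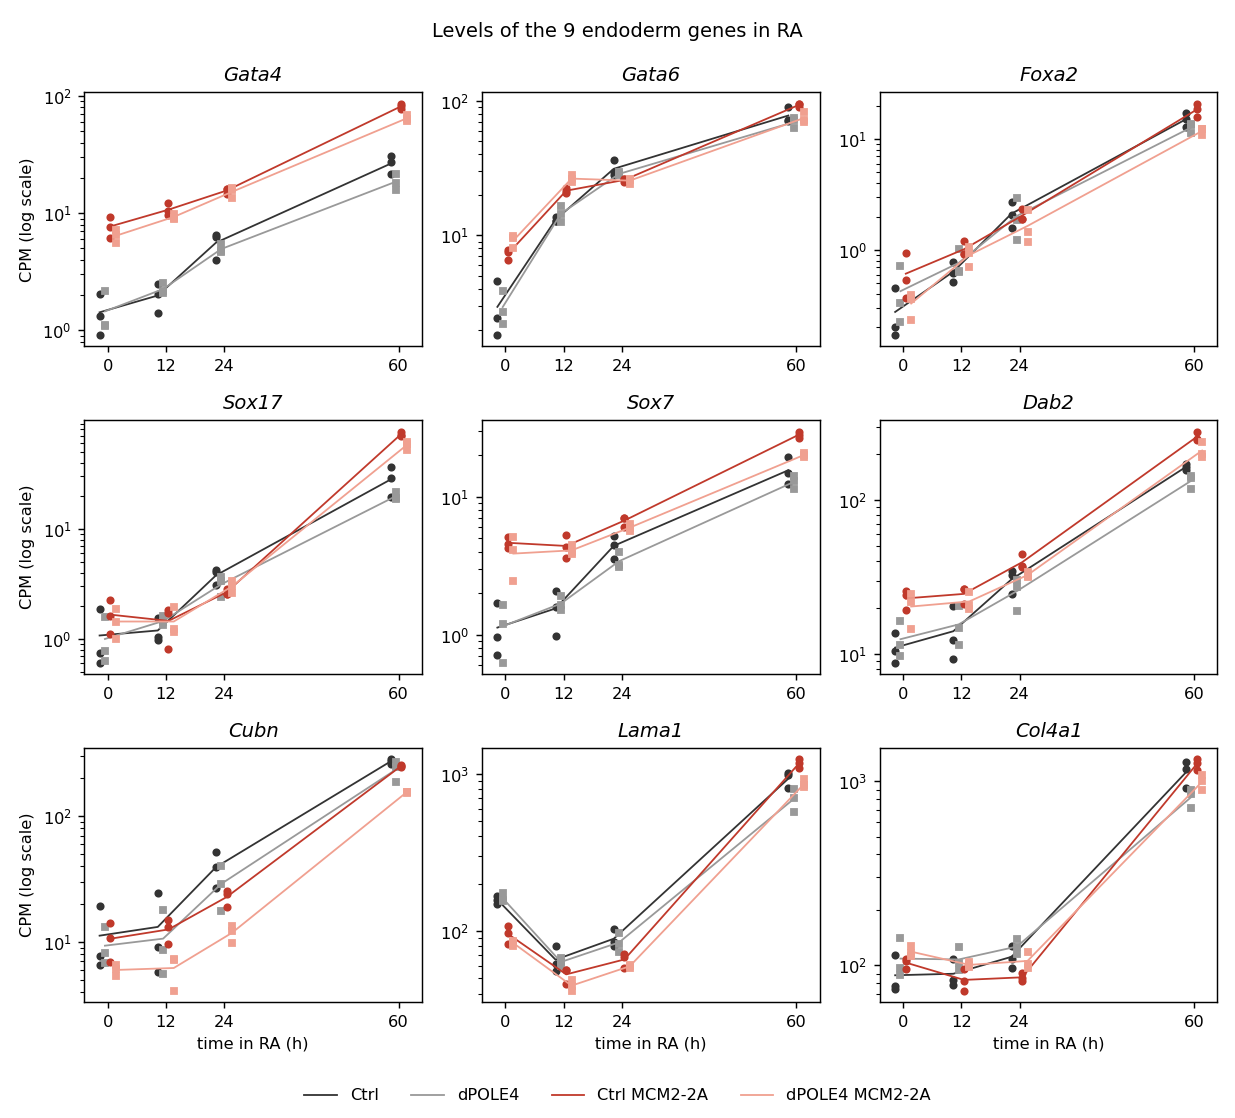
Level of each endoderm gene in CPM (log axis) against hours in RA for the 4 kinds of cells. Points are libraries, set side by side by kind of cell at each time, and lines join the means of 3 libraries. The mean of each of the 9 genes was highest at T60 in each kind of cell, Lama1 dipped at T12, and Gata4 and Sox7 started higher in both MCM2-2A groups.

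Gata6, the earliest factor of primitive endoderm, stood at 4.59, 1.82 and 2.43 CPM in the 3 Ctrl T0 libraries and at 13.6, 12.8 and 12.8 CPM at T12. The groups did not overlap, and the gene rose further to 29.4, 28.01 and 36.3 CPM at T24 and 90.4, 70.5 and 71.9 CPM at T60. Its log2 fold changes against T0 were 2.16 (standard error, SE, 0.22, adjusted p = 1.61e-05), 3.41 and 4.71. It had reached 16.8% of its mean T60 level at T12 and 40.2% at T24, at both times the highest share of the 9 genes.

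Gata4, which acts together with GATA6, had 2.04, 0.912 and 1.32 CPM at T0 and 2.48, 1.42 and 2.05 CPM at T12 in Ctrl cells. These groups overlapped (log2 fold change 0.52, adjusted p = 0.212, edgeR). It then rose to 6.57, 4.002 and 6.23 CPM at T24 and to 30.6, 21.6 and 27.3 CPM at T60, a log2 fold change of 4.2 (SE 0.20, adjusted p = 7.7e-11). Sox7, its neighbour on chromosome 14, ran a similar course, from 1.70, 0.969 and 0.708 CPM at T0 to 4.48, 3.57 and 5.17 CPM at T24 and 19.4, 12.3 and 15.0 CPM at T60. The T24 and T60 values of both genes lay above all 3 T0 values.

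Foxa2 had the fewest counts of the members before RA, 8, 3 and 4 counts in the Ctrl T0 libraries, or 0.454, 0.171 and 0.202 CPM. It was filtered out of the T12 comparison for low counts, rose to 1.58, 2.07 and 2.71 CPM at T24 and to 15.3, 13.0 and 17.1 CPM at T60, and had the largest log2 fold change of the 9 in Ctrl cells, 5.73 (SE 0.25, adjusted p = 2.76e-11). Sox17, which acts in both primitive and definitive endoderm, rose late, from 1.87, 0.741 and 0.607 CPM at T0 to 4.01, 3.06 and 4.27 CPM at T24 and 36.2, 19.4 and 28.7 CPM at T60. Replicate 1 was the highest Sox17 library at T0 and at T60, with no overlap between the times.

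Among the uptake genes, Dab2 had 13.8, 8.78 and 10.5 CPM at T0, 34.5, 24.4 and 32.9 CPM at T24 and 173.1, 156.3 and 164.9 CPM at T60. Its log2 fold change at T60 was 3.88 (SE 0.11, adjusted p = 2.26e-13). The replicates of Cubn were far apart before RA and at T12, with 19.4, 6.56 and 7.69 CPM at T0 and 24.7, 5.73 and 9.05 CPM at T12. By T24 it had 52.0, 26.6 and 39.3 CPM and by T60 282.7, 261.4 and 272.1 CPM, when the 3 libraries were close together, for a log2 fold change of 4.59 (SE 0.24, adjusted p = 1.5e-10).

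The basement membrane genes took another course. Lama1, the laminin alpha chain of early basement membranes, was already well expressed before RA, with 168.0, 158.1 and 148.9 CPM in the Ctrl T0 libraries, and fell to 79.9, 61.4 and 56.1 CPM at T12. This was a log2 fold change of -1.25 (SE 0.11, adjusted p = 3.36e-06). It was still low at T24, with 102.6, 79.9 and 85.8 CPM (log2 fold change -0.82), and then rose to 1011, 806.8 and 976.9 CPM at T60 (log2 fold change 2.54). The T12 and T24 libraries lay below all T0 libraries, and the T60 libraries above them. Col4a1, a chain of type IV collagen, was not called before T60, with 113.7, 76.7 and 73.8 CPM at T0, 108.0, 83.2 and 78.0 CPM at T12 and 127.7, 96.7 and 108.4 CPM at T24. Its T24 log2 fold change was 0.34 (adjusted p = 0.0421, edgeR), short of the call. At T60 it had 1269, 919.7 and 1173 CPM, a log2 fold change of 3.65 (SE 0.15, adjusted p = 1.54e-11).

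Per kilobase of exon, the T60 levels in Ctrl cells ran from Col4a1 (150.2 CPM per kb) and Lama1 (96.2) through Dab2 (22.4), Cubn (18.2) and Gata6 (11.9) to Gata4 (6.78), Foxa2 (6.38), Sox17 (5.88) and Sox7 (4.72). The matrix genes therefore stood above the uptake genes, and these above all 5 transcription factors. Before RA the order was Lama1 (16.4) and Col4a1 (11.8), then Dab2 (1.5), with the other 6 below 1 CPM per kb.

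In the other kinds of cells too, Gata6 was called higher by T12 and all 9 genes by T60, while fewer members were called at T24 in both MCM2-2A groups. Between T12 and T24 Gata6 went from 23.1% to 27.7% of its T60 mean in Ctrl MCM2-2A cells. In dPOLE4 MCM2-2A cells it went from 35.4% to 34.2%, against 16.8% to 40.2% in Ctrl cells. In dPOLE4 cells 2 of 9 members were called at T12 (11.7% of all features), 8 at T24 (19.2%) and 9 at T60 (48.1% of all features, with 25.6% higher). In Ctrl MCM2-2A cells the counts were 2 (8.65%), 5 (23.9%) and 9 (47.5% of all features, with 26.3% higher), and in dPOLE4 MCM2-2A cells 2 (7.79%), 6 (19.6%) and 9 (42.2% of all features, with 23.0% higher). All the T60 calls were upward. The 2 genes called at T12 were Gata6, higher, and Lama1, lower, in every kind of cell, with Gata6 log2 fold changes of 2.32, 1.57 and 1.52 and Lama1 changes of -1.35, -0.82 and -0.88 in dPOLE4, Ctrl MCM2-2A and dPOLE4 MCM2-2A cells. At T24 Foxa2, Gata4, Gata6, Dab2 and Cubn were called higher in all 4 kinds of cells, whereas Sox17 and Sox7 missed the call in Ctrl MCM2-2A cells (log2 fold changes 0.76 and 0.56). With all groups in 1 fit the Cubn call was lost in Ctrl MCM2-2A (adjusted p = 0.0182, edgeR) and dPOLE4 MCM2-2A cells (adjusted p = 0.0475, edgeR). In dPOLE4 MCM2-2A cells Sox17 lost its T24 call without T0 replicate 2 (0.89), T0 replicate 3 (1.01) or T24 replicate 1 (0.92), and Dab2 without T0 replicate 2 (0.49), T24 replicate 1 (0.67) or T24 replicate 3 (0.62). In Ctrl MCM2-2A cells Lama1 gained a T24 call without T0 replicate 2 (-0.64) or T24 replicate 1 (-0.58), Sox17 without T0 replicate 1 (1.1), and Sox7 without T0 replicate 1 (0.61) or T24 replicate 3 (0.62). Gata4 gained a T12 call without T0 replicate 1 in dPOLE4 (1.02) and in dPOLE4 MCM2-2A cells (0.61), and Sox7 a T24 call without T0 replicate 1 in dPOLE4 MCM2-2A cells (0.77).

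Other genes of the same programme, listed by function, moved as follows in Ctrl cells at T60, where rose and fell mean called, beside 26.9% of all features called higher and 23.7% called lower. Of 12 genes of the basement membrane and extraembryonic endoderm, all tested, 9 rose and 2 fell, with a median log2 fold change of 1.96. Srgn, a proteoglycan core protein, rose by 4.82 on the log2 scale, Plat, tissue plasminogen activator, by 4.50, and Pdgfra, a receptor of primitive endoderm cells, by 3.96. Of 11 genes of uptake and secretion by visceral endoderm, 10 were tested and 8 rose, with a median of 1.91. Ttr, the thyroxine carrier transthyretin, had no count in any Ctrl T0 library and 22.1 ± 3.11 CPM (SD, n = 3) at T60, at least 435-fold higher against a floor of 3 counts over the group. Afp, alpha-fetoprotein, had 11.6 ± 1.59 CPM (SD, n = 3) and Apoa1, an apolipoprotein, 2.77 ± 0.661 CPM (SD, n = 3) at T60, each with 3 counts in all over the Ctrl T0 libraries. Of 11 other endoderm transcription factors, 10 were tested, and 4 rose and 4 fell. Gata5, a relative of Gata4, had no count at T0 and 3.72 ± 1.30 CPM (SD, n = 3) at T60, at least 73.0-fold higher by the same floor, while Foxa1 rose by 5.13 on the log2 scale.

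Markers of other cell types moved over the same time. In Ctrl cells from T0 to T60 the summed level of 6 neural genes went from 216.9 to 223.9 CPM to 304.4 to 332.9 CPM, that of 5 trophoblast genes from 83.9 to 99.6 CPM to 134.2 to 165.0 CPM, and that of 5 mesoderm genes from 50.3 to 63.3 CPM to 15.1 to 17.6 CPM. The summed level of the 9 endoderm genes went from 246.1 to 325.5 CPM to 2281 to 2928 CPM. Lama1 and Col4a1 made up most of this sum at both times. Their means were 158.3 and 88.0 CPM at T0, where the mean sum was 275.5 CPM. At T60 they were 931.6 and 1121 CPM of 2652 CPM. The part of these cell types in the changes of the endoderm genes was not tested.

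Promoter sequences of 4 of the 9 members (Foxa2, Dab2, Cubn and Col4a1) were matched by symbol in RefSeq (GRCm38.p6). The 250 bases before each of their 7 gene starts were searched on both strands for 4 motifs. For GATA factors the motif was AGATAA, held by 9.99% of all 32851 such windows. For SOX factors it was ACAAT, held by 27.7% of them. For FOX factors it was TGTTTAC, held by 3.17%. For nuclear receptors it was the half-site AGGTCA, held by 14%. The search found 1 match, an AGATAA that begins 183 bases before the innermost of the 3 Foxa2 starts, in a Foxa2 intron at chr2:148045465-148045714 on the minus strand. Foxa2 and Cubn are shown because both were called lower after POLE4 depletion at T60 (described further on). Capitals mark the AGATAA, and the Cubn window (chr2:13491877-13492126, minus strand) has none.
Foxa2: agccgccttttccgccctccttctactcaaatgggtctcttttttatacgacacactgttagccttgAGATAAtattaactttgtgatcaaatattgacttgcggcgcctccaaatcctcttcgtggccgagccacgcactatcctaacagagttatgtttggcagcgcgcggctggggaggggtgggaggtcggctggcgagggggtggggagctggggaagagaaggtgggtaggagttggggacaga
Cubn: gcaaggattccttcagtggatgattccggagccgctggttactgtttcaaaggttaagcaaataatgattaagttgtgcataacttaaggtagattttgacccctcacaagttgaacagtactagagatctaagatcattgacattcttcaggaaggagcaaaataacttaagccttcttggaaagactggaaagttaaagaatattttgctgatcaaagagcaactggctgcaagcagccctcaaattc

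Whether the endoderm genes differed between the 2 backgrounds was asked by comparing Ctrl MCM2-2A with Ctrl cells at each time. Before RA, Gata4, Sox7, Gata6 and Dab2 were higher and Lama1 lower in the MCM2-2A line, and at T60 Gata4, Sox17, Sox7 and Dab2 were higher. At T0 5 of the 8 members tested were called, beside 18.9% of all features, at T12 3 of 9 (14.5%), at T24 3 of 9 (17.3%), at T60 4 of 9 (16.9%) and at 96h 6 of 8 (15.7%). At T24 Gata4 and Sox7 were called higher and Cubn lower. The fitted difference was negative for 2 of 8 members at T0, 6 of 9 at T24 and 1 of 9 at T60. Foxa2 was filtered out for low counts at T0 and 96h.

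Gata4 was higher in the MCM2-2A line at every time. At T0 its libraries had 9.30, 6.12 and 7.68 CPM in Ctrl MCM2-2A against 2.04, 0.912 and 1.32 CPM in Ctrl cells, and at T60 82.0, 77.8 and 86.1 CPM against 30.6, 21.6 and 27.3 CPM. The log2 fold changes were 2.43 (SE 0.24, adjusted p = 8.22e-06), 2.39, 1.5 and 1.63 from T0 to T60 and 2.86 at 96h, with no overlap between the groups at any time. Sox7 had 5.07, 4.28 and 4.56 CPM in Ctrl MCM2-2A cells at T0 and 29.7, 26.7 and 28.3 CPM at T60. Its log2 fold changes were 2.04, 1.47, 0.66 and 0.84 from T0 to T60 and 1.82 at 96h, all called. The T24 call of Sox7 was lost without Ctrl replicate 2 (0.52) or Ctrl MCM2-2A replicate 2 (0.62).

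Neighbouring genes give the measure for these differences. The limits of the chromosome 14 segment were set on the T0 comparison itself, so a raised median at T0 was part of its choice. The other genes of the chromosome 14 segment had a median log2 fold change between the lines of 1.005 at T0 (205 genes), 0.995 at T12, 0.9951 at T24, 0.9378 at T60 and 0.955 at 96h. Gata4 lay above this median by 1.43, 1.39, 0.51, 0.69 and 1.91, and above 83.3% to 98.5% of the segment's genes. Sox7 lay above it by 1.035 at T0, 0.47 at T12 and 0.87 at 96h but below it at T24 (-0.3385) and T60 (-0.0941). Dab2 had log2 fold changes of 1.06 at T0, 0.78 at T12, 0.38 at T24, 0.66 at T60 and 1.21 at 96h, of which those at T0, T60 and 96h were called, and the medians of the other chromosome 15 genes were 0.56, 0.51, 0.52, 0.47 and 0.53. The Dab2 difference at T12 was called without Ctrl replicate 1 (1.19), with no filter (0.75), with the replicate number as a block (0.86) and with all groups in 1 fit (0.75).

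**Figure D2:**
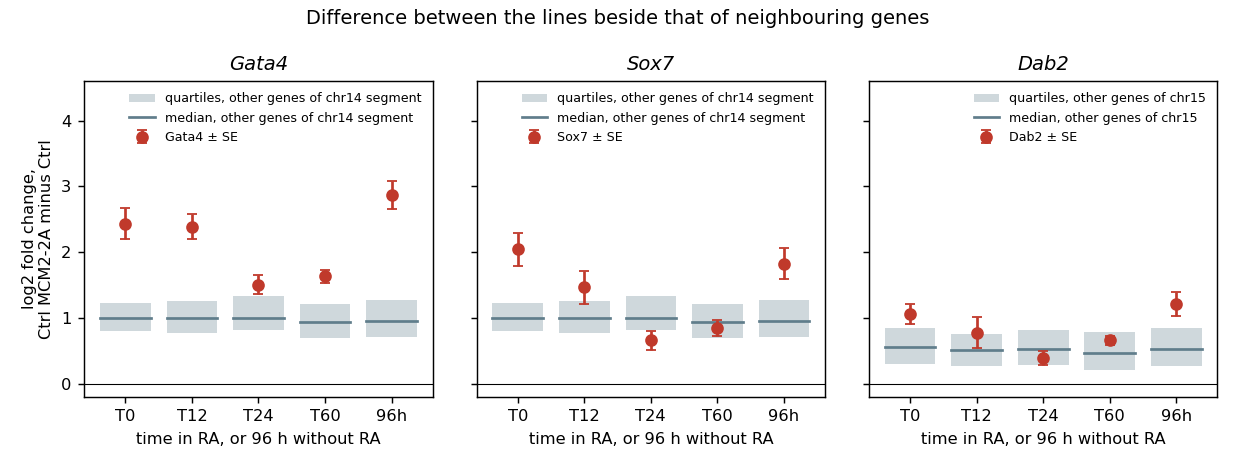
Log2 fold change of Gata4, Sox7 and Dab2 between Ctrl MCM2-2A and Ctrl cells (points, with standard error, 3 libraries per group) beside the median (line) and quartiles (band) of the other genes of the same stretch. Gata4 lay above the upper quartile at all times, whereas Sox7 lay above it at T0, T12 and 96h, below the lower quartile at T24 and between the quartiles at T60.

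Members outside these stretches, whose neighbouring genes were not examined, differed as well. Gata6 had 7.49, 6.58 and 7.86 CPM in Ctrl MCM2-2A cells at T0 against 4.59, 1.82 and 2.43 CPM in Ctrl cells, with a log2 fold change of 1.31 (SE 0.25, adjusted p = 0.00113). Its difference was 0.72 at T12, -0.25 at T24 and 0.27 at T60, of which only the first was called, and 1.89 at 96h (adjusted p = 9.53e-06). Sox17 differed late, with 70.0, 71.6 and 76.6 CPM against 36.2, 19.4 and 28.7 CPM at T60 (log2 fold change 1.37, SE 0.14, adjusted p = 2e-06), and it was also higher at 96h (1.69), where the levels were 3.19, 1.68 and 2.88 CPM against 0.802, 0.724 and 0.820 CPM. Neither group pair overlapped. At T60 Sox17, which lies on chromosome 1, had the highest fitted difference of the 9 genes after Gata4.

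Lama1 was the only member called lower before RA, with 107.4, 82.8 and 97.3 CPM in Ctrl MCM2-2A cells against 168.0, 158.1 and 148.9 CPM in Ctrl cells at T0 (log2 fold change -0.74, SE 0.08, adjusted p = 1.41e-05), and it was lower at 96h (-0.65). At T60 it was above Ctrl in all 3 libraries, at 1174, 1081 and 1235 CPM, without reaching the fold needed for a call (0.33, adjusted p = 0.00504, edgeR). Cubn was called lower at T24, with 23.9, 18.9 and 25.5 CPM against 52.0, 26.6 and 39.3 CPM (log2 fold change -0.79, adjusted p = 0.00127), and this call was lost without Ctrl replicate 1 (-0.52), without Ctrl MCM2-2A replicate 2 (-0.65) and with DESeq2 (-0.78, adjusted p = 0.0339). Its values at T60 were 248.4, 246.9 and 257.0 CPM against 282.7, 261.4 and 272.1 CPM (-0.11). At 96h Cubn differed by 0.65 (adjusted p = 0.0544, edgeR) and, with the replicate number as a block, by 0.61 (adjusted p = 0.00484, edgeR), which was a call. Col4a1 was not called at any time. At 96h its difference was 0.44, and without Ctrl replicate 1 it was 0.62 and called.

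In this comparison at T60, 1620 features were called higher and 1431 lower of 18056 tested (16.9% in either direction). Markers that moved with it include all 5 pluripotency genes, called higher in Ctrl MCM2-2A cells with a median log2 fold change of 1.67, and 3 of 5 tested neural genes, called lower. Of 4 trophoblast genes tested 2 were called higher (Krt7 and Cdx2) and 1 lower (Gata3), with a summed level over the 5 listed of 214.0 to 241.9 against 134.2 to 165.0 CPM. Krt7 alone had 166.0 ± 14.5 against 43.6 ± 6.57 CPM (SD, n = 3), and Gata3 29.0 ± 3.22 against 75.9 ± 6.87 CPM. Of 4 mesoderm genes tested 1 was called lower, and the summed level of the 5 listed was 10.8 to 13.1 against 15.1 to 17.6 CPM at T60 and 9.72 to 13.3 against 50.3 to 63.3 CPM at T0. At 96h without RA the mesoderm sum overlapped between the lines, with 17.9 to 19.0 against 16.3 to 27.1 CPM. Of the 11 genes of uptake and secretion by visceral endoderm, 10 were tested, 2 called higher and 4 lower, and their summed level overlapped between the lines (445.9 to 472.6 against 450.8 to 489.7 CPM). The 3 with the highest RA response in Ctrl cells were among those called lower: Ttr was 4.44 ± 0.303 against 22.1 ± 3.11 CPM (SD, n = 3), a log2 fold change of -2.30, Afp 0.914 ± 0.212 against 11.6 ± 1.59 CPM (-3.68) and Apoa1 0.190 ± 0.0553 against 2.77 ± 0.661 CPM (-3.88). Foxa1, Plat and Pdgfra were not called between the lines at T60, with log2 fold changes of 0.48, -0.01 and 0.10. The part of these markers in the differences of the endoderm genes was not tested.

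The RA response itself was compared between the backgrounds by the interaction of line and time, in which a difference that is the same at both times cancels. Gata6 and Sox7 had smaller log2 fold changes in Ctrl MCM2-2A than in Ctrl cells at T24 and T60, and Lama1 a larger one at T60. From T0 to T60 mean Gata6 went from 7.31 to 93.1 CPM in Ctrl MCM2-2A and from 2.95 to 77.6 CPM in Ctrl cells. Mean Sox7 went from 4.64 to 28.2 CPM and from 1.13 to 15.6 CPM. The smaller folds were thus taken against higher T0 levels, and neither mean was lower in the MCM2-2A line at T60. No member was called at T12 by edgeR (0.303% of all features) or by DESeq2. At that time 2 members had an unadjusted p under 0.05, beside 11.8% of all features. At T24 2 of 9 members were called (2.18%) and at T60 3 of 9 (9.10%). The Gata6 difference in log2 fold change was -1.58 (SE 0.25, adjusted p = 0.000585) at T24 and -1.08 (SE 0.24, adjusted p = 0.00291) at T60. The Sox7 difference was -1.40 (SE 0.30, adjusted p = 0.00635) at T24 and -1.22 (SE 0.28, adjusted p = 0.00444) at T60. The medians of the segment's other genes were -0.0045 and -0.11. Lama1 differed by 1.04 (SE 0.13, adjusted p = 1.06e-05) at T60, having started lower and ended higher in the MCM2-2A line. The 3 genes called had started at other T0 levels in the MCM2-2A line, and Gata4, which had too, differed by -0.94 at T24 (adjusted p = 0.0658, edgeR) and by -0.84 at T60 (adjusted p = 0.0262, edgeR). Gata4 was called at T60 with DESeq2 (-0.83, adjusted p = 0.00815), with no filter (-0.81) and with the replicate number as a block (-0.80).

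Single libraries decided several of these calls. Sox7 lost its T24 call without any 1 of 7 libraries, with values from -1.43 to -1.16: Ctrl T0 replicates 2 and 3, Ctrl T24 replicates 1 and 3, and each of the Ctrl MCM2-2A T24 replicates. It lost its T60 call without Ctrl T0 replicates 2 or 3, Ctrl T60 replicates 1 or 3, or Ctrl MCM2-2A T60 replicates 2 or 3, with values from -1.22 to -0.96. Gata6 lost its T60 call without Ctrl T0 replicate 2 (-0.84), Ctrl T0 replicate 3 (-0.95) or Ctrl MCM2-2A T0 replicate 3 (-1.01) and with DESeq2 (-1.05, adjusted p = 0.0128). Without Ctrl T0 replicate 1, Gata4 (-1.18) and Dab2 (-0.63) were called as well at T60 and Col4a1 (-0.83) at T24. The Gata6 call at T24 and the Lama1 call at T60 held with every library left out and under each other setting tried.

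**Figure D3:**
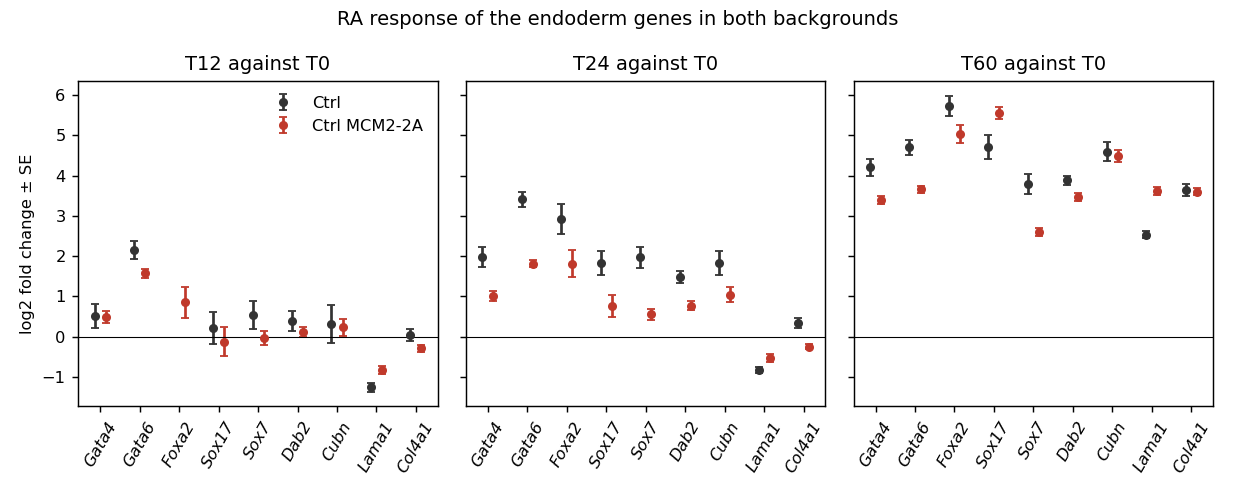
Log2 fold change of the endoderm genes against T0 (points, with standard error, 3 libraries per group) after 12 h, 24 h and 60 h in RA, for Ctrl and Ctrl MCM2-2A cells. At T24 the 7 genes called higher in Ctrl cells had smaller fitted changes in Ctrl MCM2-2A cells, and at T60 Lama1 had the larger change in Ctrl MCM2-2A cells. Foxa2 in Ctrl cells at T12 was not tested and is left out.

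The effect of POLE4 depletion was then asked within each background. With wild-type MCM2, no member was called at any time by edgeR, nor by DESeq2. At T0, T12, T24 and 96h, 0% of all features were called by edgeR. The members at an unadjusted p under 0.05 numbered 0, 0, 0 and 1, beside 11.6%, 6.42%, 7.6% and 12.3% of all features. At T60 0.193% of features were called, and 7 of 9 members had an unadjusted p under 0.05, beside 14.3% of all features. All 9 log2 fold changes at T60 were negative, from -0.52 for Gata4 to -0.16 for Gata6, with a median of -0.30 beside 0.00 over all features. Dab2, Lama1 and Col4a1 did not overlap between the groups, 3 of 9 genes, beside 10.9% of all features not overlapping and lower. Dab2 had 143.1, 118.7 and 140.3 CPM in dPOLE4 against 173.1, 156.3 and 164.9 CPM in Ctrl cells (log2 fold change -0.29, adjusted p = 0.0537, edgeR). Without Ctrl T60 replicate 2, the lowest Ctrl library for Gata4 and Sox17, both genes were called, at -0.64 and -0.71.

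In the MCM2-2A background the 9 endoderm genes were lower after POLE4 depletion at T60, and Cubn and Foxa2 were called. The members called were 0 of 8 at T0 (0.0715% of all features), 0 of 9 at T12 (0.404%), 1 of 9 at T24 (1.02%), 2 of 9 at T60 (2.25%) and 0 of 8 at 96h (0.304%). At T0, T12 and 96h, 3, 4 and 4 members had an unadjusted p under 0.05, beside 13.5%, 17.6% and 11.5% of all features. DESeq2 called 0, 1 and 0 members at these times, the one at T12 being Cubn (-1.02). With the replicate number as a block, which the libraries bear out as a pairing at T0, Cubn was called at T0, at -0.86 (adjusted p = 0.000365, edgeR). At T60 the libraries of all 9 genes lay below all 3 controls, beside 14.6% of all features that did so, and the median log2 fold change was -0.34, from -0.70 to -0.29.

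Cubn was lower in dPOLE4 MCM2-2A than in Ctrl MCM2-2A cells at every time. It had 6.08, 5.32 and 6.55 CPM against 10.8, 6.89 and 14.1 CPM at T0, and 7.14, 4.11 and 7.36 CPM against 14.9, 9.55 and 13.2 CPM at T12. At T24 it had 13.4, 9.76 and 12.3 CPM against 23.9, 18.9 and 25.5 CPM. These groups did not overlap at T0, T12 or T24, and the log2 fold changes were -0.84, -1.01 and -0.91 (SE 0.13, adjusted p = 0.00121 at T24). At T60 it had 151.8, 156.6 and 155.6 CPM against 248.4, 246.9 and 257.0 CPM, with a log2 fold change of -0.70 (SE 0.06, adjusted p = 0.000396). The T24 call was lost without Ctrl MCM2-2A replicate 1 (-0.87), and both calls were lost with all 16 groups in 1 fit (-0.91 and -0.70, adjusted p = 0.118 and 0.105). At 96h it was -0.62 (adjusted p = 0.333, edgeR), and the groups overlapped.

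Foxa2 had 12.2, 10.9 and 12.4 CPM in dPOLE4 MCM2-2A against 18.7, 15.9 and 20.8 CPM in Ctrl MCM2-2A cells at T60 (log2 fold change -0.63, SE 0.12, adjusted p = 0.00633). This call was lost without Ctrl MCM2-2A replicate 1 (-0.62) or 3 (-0.54) and without dPOLE4 MCM2-2A replicate 1 (-0.66) or 2 (-0.58). Sox7 (-0.48, adjusted p = 0.00492) and Lama1 (-0.43, adjusted p = 0.00523) passed the p threshold in edgeR without the fold. Lama1 had 929.2, 844.3 and 822.1 CPM against 1174, 1081 and 1235 CPM, and Col4a1 1077, 1006 and 901.3 CPM against 1252, 1159 and 1316 CPM. Before T60 Col4a1 differed the other way, with log2 fold changes of 0.21, 0.27 and 0.30 at T0, T12 and T24 and 0.40 at 96h, all without overlap and none called. The gene with the pattern most like that of Foxa2 over the 16 groups of the RA experiment was Pdgfra. Those groups include the 2 compared here, so its change is no separate support for the Foxa2 call. Pdgfra was called lower (43.8 ± 2.33 against 66.9 ± 6.39 CPM, SD, n = 3, log2 fold change -0.61). With wild-type MCM2 it had 42.2 ± 5.71 against 62.8 ± 6.24 CPM (SD, n = 3), a log2 fold change of -0.56 (adjusted p = 0.00742, edgeR) that missed the fold needed for a call.

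Other markers moved with this comparison at T60, in which 2.25% of all features were called. The summed pluripotency genes were 395.3 to 513.0 CPM against 284.9 to 377.4 CPM, with all 5 log2 fold changes positive and 1 called. The 6 neural genes were 166.5 to 184.8 CPM against 215.6 to 248.1 CPM, and the 5 trophoblast genes 263.3 to 337.5 CPM against 214.0 to 241.9 CPM. Krt7 made up most of the trophoblast sum in both groups, at 214.7 ± 38.1 against 166.0 ± 14.5 CPM (SD, n = 3), and was not called. Neither were Cdx2 (9.59 against 7.69 CPM) and Gata3 (27.4 against 29.0 CPM). The 5 mesoderm genes were 16.7 to 21.9 CPM against 10.8 to 13.1 CPM, with 1 of 4 tested called higher. The part of these markers in the endoderm values was not tested. The 12 genes of basement membrane and extraembryonic endoderm had log2 fold changes from -0.85 to -0.02, with 2 called, and the 11 other endoderm transcription factors had changes from -0.53 to 0.45.

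Whether POLE4 depletion acted differently in the 2 backgrounds was tested by the interaction. No member was called by edgeR at T12 (0.0159% of all features), T24 (0.0351%) or T60 (0.10%), nor by DESeq2. At an unadjusted p under 0.05 there were 0, 0 and 2 members, beside 7.4%, 8.81% and 10.1% of all features. The pair at T60 were Cubn, with a difference of -0.48 (SE 0.13, adjusted p = 0.108), and Foxa2, with -0.39 (SE 0.17, adjusted p = 0.443). Without dPOLE4 T60 replicate 2, in which Cubn was at 188.5 CPM beside 271.2 and 243.6 CPM in the other libraries of that group, Cubn was called, at -0.63. The calls of Cubn and Foxa2 in the MCM2-2A background alone are therefore not shown to differ from the wild-type background.

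**Figure D4:**
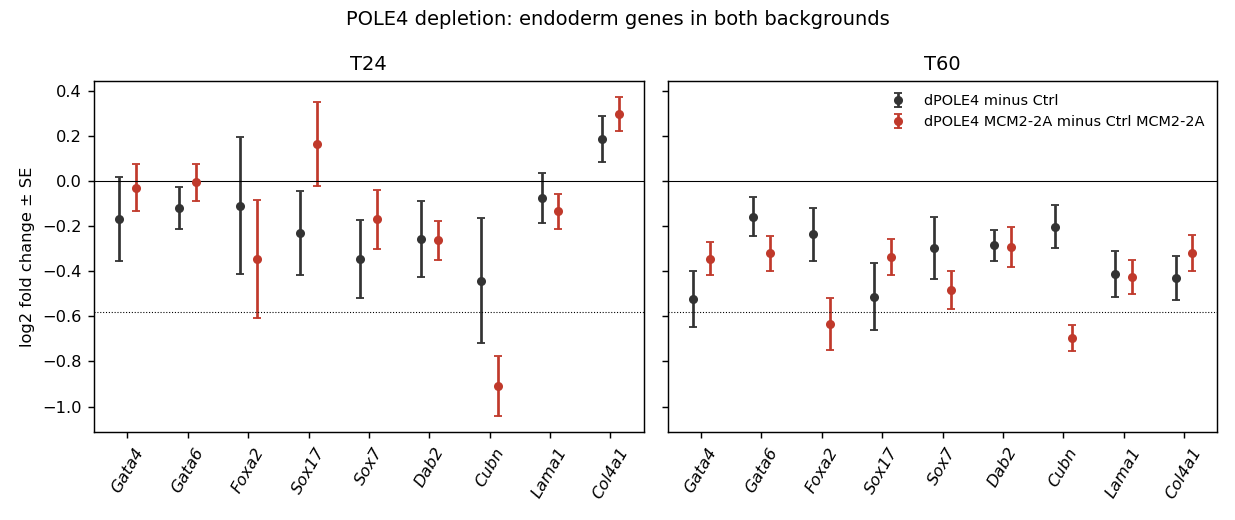
Log2 fold change after POLE4 depletion (points, with standard error, 3 libraries per group) at T24 and T60 in both backgrounds, with the fold needed for a call as a dotted line at -0.58. At T60 all 9 genes were below 0 in both backgrounds, and Cubn and Foxa2 lay below the dotted line in the MCM2-2A background.

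The patterns of the members over the 16 groups of the RA experiment were alike to different degrees. These correlations of mean log2 CPM are descriptions across groups that share lines and times. Gata4 and Sox7 had a Pearson r of 0.98, Dab2 and Sox17 also 0.98, and Foxa2 and Dab2 0.97, whereas Gata6 and Lama1 had 0.53 and Gata4 and Lama1 0.61. Among 20383 genes, the most alike to Col4a1 were Lamb1 (0.998) and Col4a2 (0.998), its partner chain, and to Lama1 were Dpysl3 (0.995) and Lamc1 (0.994), another laminin chain. Egflam, which lies on chromosome 15 as Dab2 does, was most like both Sox17 (0.985) and Dab2 (0.99). Lrp10, which lies on chromosome 14 as Gata4 does, was most like Gata4 (0.99). Cpm was most like Gata6 (0.982), Dyrk2 most like Cubn (0.989), and Gata4 itself most like Sox7.

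Ordered by level over the 16 groups, the T60 groups stood apart from all earlier groups, without overlap, for 8 of the 9 genes. The exception was Gata4, whose dPOLE4 T60 libraries (15.8 to 21.8 CPM) overlapped the Ctrl MCM2-2A T24 libraries (14.6 to 16.2 CPM). Within T60, the order for Gata4 was Ctrl MCM2-2A, dPOLE4 MCM2-2A, then Ctrl and dPOLE4, of which the last 2 overlapped. Sox17 had the same order with the same overlap, and Dab2 had it with no overlap between neighbours. For Cubn the order was Ctrl, Ctrl MCM2-2A, dPOLE4 and dPOLE4 MCM2-2A, and the dPOLE4 libraries (188.5 to 271.2 CPM) overlapped those of both Ctrl MCM2-2A and Ctrl cells. Below T60, neighbouring groups overlapped in most places for every gene, and for Foxa2, Cubn and Col4a1 no pair of neighbours was separate.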

How the data were processed

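RNA was sequenced from mESCs of 20 groups, 3 libraries each, in 2 experiments with 1 count table each. The deposited counts are whole-number reads per gene and repeat subfamily, made by the authors with cutadapt 4.2, STAR and TEcount against mm10, and each table holds 55487 genes and 1146 repeat subfamilies. Symbols, positions and exon lengths were taken from GENCODE M21. Groups came from the sample titles.

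Each pair of groups was fitted across all features with edgeR 4.0.16 (limma 3.58.1, R 4.3.3): TMM scaling, filterByExpr (10 counts, 15 in total), quasi-likelihood test and Benjamini-Hochberg adjustment. Levels are CPM on TMM-scaled totals, which were 7126100 to 46609151 counts before scaling. Interactions were fitted on the 4 groups concerned. DESeq2 1.42.0, its size factors in edgeR, other filters, all groups in 1 fit, a replicate block and each library left out were the alternatives. Same-numbered libraries were judged to be paired where every correlation of their deviations exceeded 0.1. This held for POLE4 depletion at T0 and 96h in both backgrounds and between the lines at 96h. The main fits were unpaired in these comparisons too, and the replicate block was the paired alternative. The chromosome 14 segment was the run of 21-gene windows with a median log2 difference above 0.58. All 9 genes were named, with the 3 genes of each related list that changed most in size at T60 in Ctrl cells and genes from the 3 most alike to each member. Some items that these rules would name are not reported here. The members and lists were chosen with earlier results of these data known. The tests were tried on simulated counts first.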

Additional observations from a re-analysis of the deposited data

Results flagged for a closer look

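The RA response differed between Ctrl MCM2-2A and Ctrl cells, by edgeR's interaction test, for 3 of the 9 endoderm genes. The log2 fold change of Gata6 was smaller in the MCM2-2A line by -1.58 at T24 and -1.08 at T60, and that of Sox7 by -1.40 at T24 and -1.22 at T60. The change of Lama1 at T60 was larger, by 1.04. Gata6 and Sox7 started higher and Lama1 lower in the MCM2-2A line. The Sox7 calls and the Gata6 call at T60 were lost when single libraries were left out.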

How the results depend on the processing

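The mutation and the clone cannot be told apart, each group has 3 libraries, and Foxa2 had too few counts before RA to be tested between lines. All 9 genes kept their T60 rise in each kind of cell under every setting in which they were tested. For POLE4 depletion in the MCM2-2A background, the number of members called at T0 went from 0 to 1 with no filter and to 1 with the replicate block, which is the paired fit there, at T12 from 0 to 1 with DESeq2 and to 1 with no filter, at T24 from 1 to 0 with all groups in 1 fit, and at T60 from 2 to 1 with all groups in 1 fit. The RA response at T24 differed between the lines for 5 members with no filter against 2. The cause was not tested. Against the median of their chromosome 14 segment the Sox7 differences between the lines turned to -0.3385 at T24 and -0.0941 at T60. With single libraries left out, members called ran from 2 to 3 for dPOLE4 T12 against T0, 2 to 3 for dPOLE4 MCM2-2A T12, 4 to 7 for dPOLE4 MCM2-2A T24, 1 to 3 between the lines at T24, 0 to 2 for POLE4 depletion at T60 with wild-type MCM2, 0 to 1 at T24 and 1 to 2 at T60 with MCM2-2A, 1 to 3 and 1 to 5 for the RA response between lines at T24 and T60, and 0 to 1 for the POLE4 interaction at T60. The block changed the call of Cubn in the paired comparisons at T0 (MCM2-2A depletion) and 96h (between lines) and no other member's call there.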
